A study of Homo sapiens with 15 samples.

Results

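The genes described here are 9 histone deacetylases and corepressor subunits, out of 13056 genes in a table of poly(A) site use in HEK293T cells, an established human embryonic kidney line. They are HDAC1, HDAC2, HDAC3, HDAC4, HDAC5, NCOR1, SAP18, GATAD2A and ARID4A, found by gene symbol, and all 9 had a value in all 15 libraries. They were picked with their differences from the control group in view, so whether those differences passed the threshold of a fit over the whole table is given as a description and supports nothing further. The cells carried a short hairpin RNA (shRNA). There were 3 libraries of shControl, whose genotype label is WT, and 2 libraries each of the knockdowns shHDAC1, shPABPN1, shPCBP2, shSF3B4, shU2AF2 and shZNF384. In the names of the libraries, those of shControl end in nuc and those of the knockdowns do not, so a difference in preparation cannot be told apart from an effect of knockdown in any comparison with shControl. The labels do not say whether the libraries of a group came from separate cultures, so p-values measure only the spread between these libraries.

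Histone deacetylases remove acetyl groups from histone tails and are brought to chromatin by corepressor complexes. HDAC1 and HDAC2 are class I enzymes of the SIN3, NuRD and CoREST complexes, and HDAC3 is the class I enzyme of the NCoR/SMRT complex, in which NCOR1 is a scaffold. HDAC4 and HDAC5 are class IIa enzymes that shuttle between nucleus and cytoplasm. SAP18 and ARID4A belong to SIN3 complexes, and GATAD2A belongs to NuRD. Many genes have more than 1 poly(A) site, and the choice among sites in the last exon sets the length of the 3′ untranslated region (UTR), which can hold sites for microRNAs and RNA-binding proteins. Of the targeted proteins, PABPN1 is the nuclear poly(A)-binding protein, PCBP2 binds C-rich RNA, U2AF2 and SF3B4 take part in recognition of the 3′ splice site and branch point, and ZNF384 is a zinc finger transcription factor.

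PDUI, the quantity deposited, is the authors' estimate of how large a fraction of a gene's RNA ends at the distal poly(A) site, up to 1. Low values therefore stand for use of the proximal site. Read depth is unknown, and PDUI says nothing of how much RNA a gene makes, so neither knockdown strength nor cell identity could be checked by level. Of 10 marker genes of other cell types, 1 had a value in the table at all. Averaged over the 11353 genes measured in all libraries, PDUI ran from 0.522 in shControl replicate 1 to 0.585 in a shZNF384 library. Replicates 2 and 3 of shControl were at 0.56 and 0.561, so replicate 1 lay apart from its own group. It also lacked a value for more genes, 3.84% beside 1.54% and 2.26%. All comparisons with shControl include it.

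The table does not give the positions of the compared sites, so the last exons were read from GENCODE 29 on GRCh38 to show where these RNAs can end. Each of the 9 transcripts has AATAAA or ATTAAA, the hexamers that recruit the cleavage machinery, within 40 bases of its annotated end, as do 72.6% of all last exons found for the table. The search covered the strand of the transcript, since the hexamer is read in RNA. For HDAC2, HDAC5, NCOR1 and SAP18 the 30-base stretches around an inner and a distal hexamer are shown, because each of these genes has another annotated end from 10 to 40 bases after an inner hexamer. For HDAC1 and HDAC4, which had the widest ranges of PDUI among the 9, the distal stretch is shown. Capitals mark 1 hexamer in each stretch, and each stretch runs 5′ to 3′ on the transcript's strand. The distal stretch of NCOR1 also holds AATAAA from bases 3299 and 3303 of the last exon, before the marked hexamer at 3307.
HDAC1 distal, chr1:32333593-32333622, plus strand: gagcctctttgtAATAAAatggtacatttc
HDAC4 distal, chr2:239048178-239048207, minus strand: tcttgtggtgtaAATAAAgactgcgttact
HDAC2 inner, chr6:113940719-113940748, minus strand: gtaattatctttATTAAAaaattgtacttg
HDAC2 distal, chr6:113933029-113933058, minus strand: agacaaagctcaAATAAAggaaaaagaccc
HDAC5 inner, chr17:44078303-44078332, minus strand: tttattttttctATTAAAaacaaaaagtca
HDAC5 distal, chr17:44076759-44076788, minus strand: tgtccttgtgtaAATAAActtgtttctggc
NCOR1 inner, chr17:16031411-16031440, minus strand: cttttgttttgaAATAAAtttgactaccct
NCOR1 distal, chr17:16029160-16029189, minus strand: aattaataaataAATAAAacttggaatgaa
SAP18 inner, chr13:21147377-21147406, plus strand: tcagttatgtaaAATAAAcatactcttctt
SAP18 distal, chr13:21149047-21149076, plus strand: atataaaatagaAATAAAtaagtagtcatc

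The annotated inner end lies 7690 bases before the distal end in HDAC2, 2247 in NCOR1, 1671 in SAP18 and 1548 in HDAC5. GATAD2A and ARID4A have the same arrangement, with inner ends 1590 and 157 bases before the distal one. HDAC1, HDAC3 and HDAC4 have other annotated ends in the last exon, but none placed in this way after an inner hexamer. Whether these annotated ends are the sites compared in the table was not tested. A match of 6 letters is a description and not a mapped site.

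The last exons differed widely in length. They measured 8061 bases in HDAC2 (chr6:113933028-113941088), 4969 in HDAC4 (chr2:239048168-239053136), 3588 in GATAD2A (chr19:19505344-19508931) and 3327 in NCOR1 (chr17:16029157-16032483). Those of ARID4A (chr14:58371886-58373887), SAP18 (chr13:21147186-21149084) and HDAC5 (chr17:44076746-44078415) had 2002, 1899 and 1670 bases, and those of HDAC3 (chr5:141620876-141621537) and HDAC1 (chr1:32333017-32333635) had 662 and 619. The median over the table was 1372 bases. In all 9 the bases after the stop codon, from 591 in HDAC1 to 8030 in HDAC2, make up most of the last exon. No other annotated gene lies on any of the 9, whereas 25.6% of all last exons carry one. The listed transcripts of HDAC1 and HDAC3 are of the retained-intron type, and each shares its last exon with a protein-coding transcript of the gene.

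**Figure D1:**
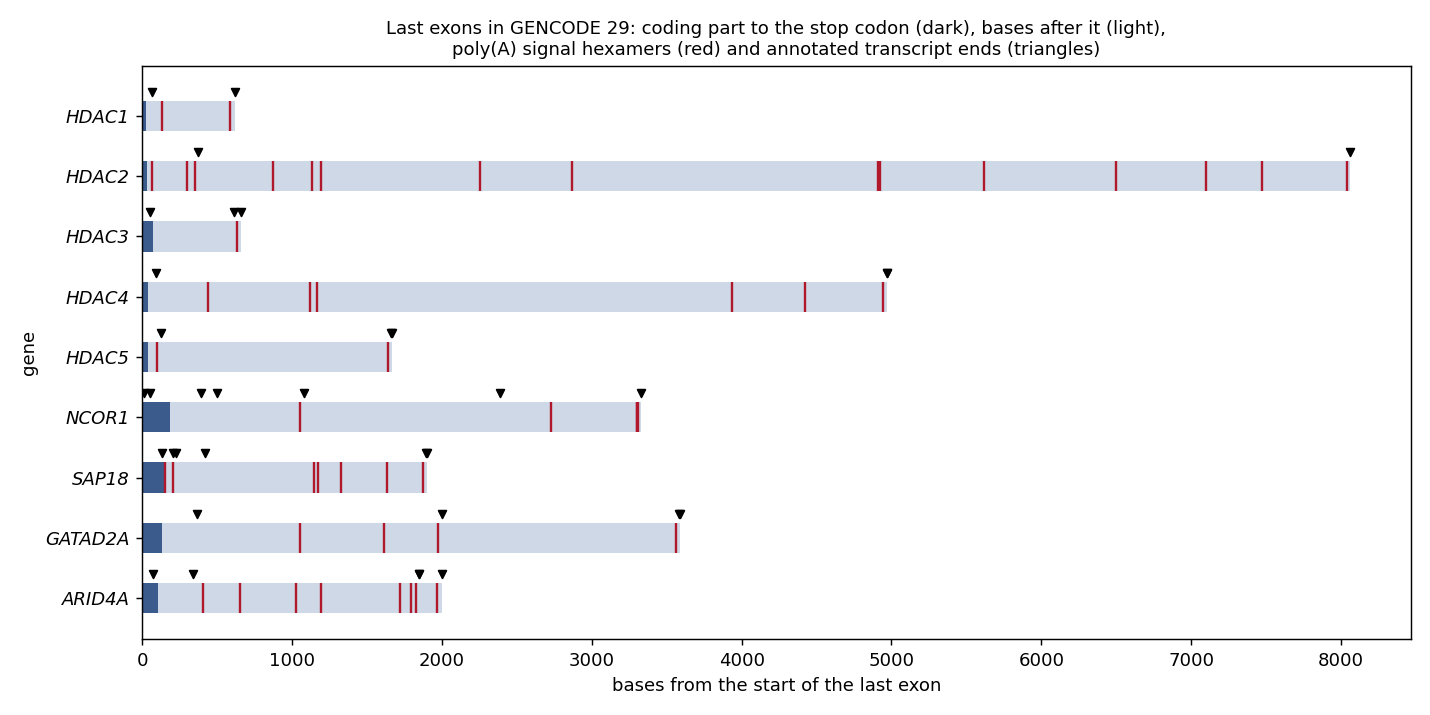
Last exon of each of the 9 genes in GENCODE 29, drawn to scale in bases, with the part up to the stop codon in dark, annotated transcript ends as triangles and AATAAA or ATTAAA hexamers as red lines. The HDAC2 exon, at 8061 bases, is the longest of the 9, and each of the 9 has a hexamer near its distal end.

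The 9 genes sat at very different points of the PDUI scale. HDAC1 was mostly distal, with a median of 0.82 over the 15 libraries, and HDAC2 was almost wholly proximal, with a median of 0.01. The other 7 had medians between 0.09 for SAP18 and 0.36 for HDAC3. The spread between groups was largest in HDAC4, whose 7 group means spanned 0.402, and in HDAC1, at 0.35. It was 0.225 in HDAC5, 0.155 in HDAC3 and in ARID4A, 0.13 in NCOR1, 0.103 in GATAD2A, 0.0617 in SAP18 and 0.04 in HDAC2, beside a median of 0.14 over the 11353 complete genes.

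**Figure D2:**
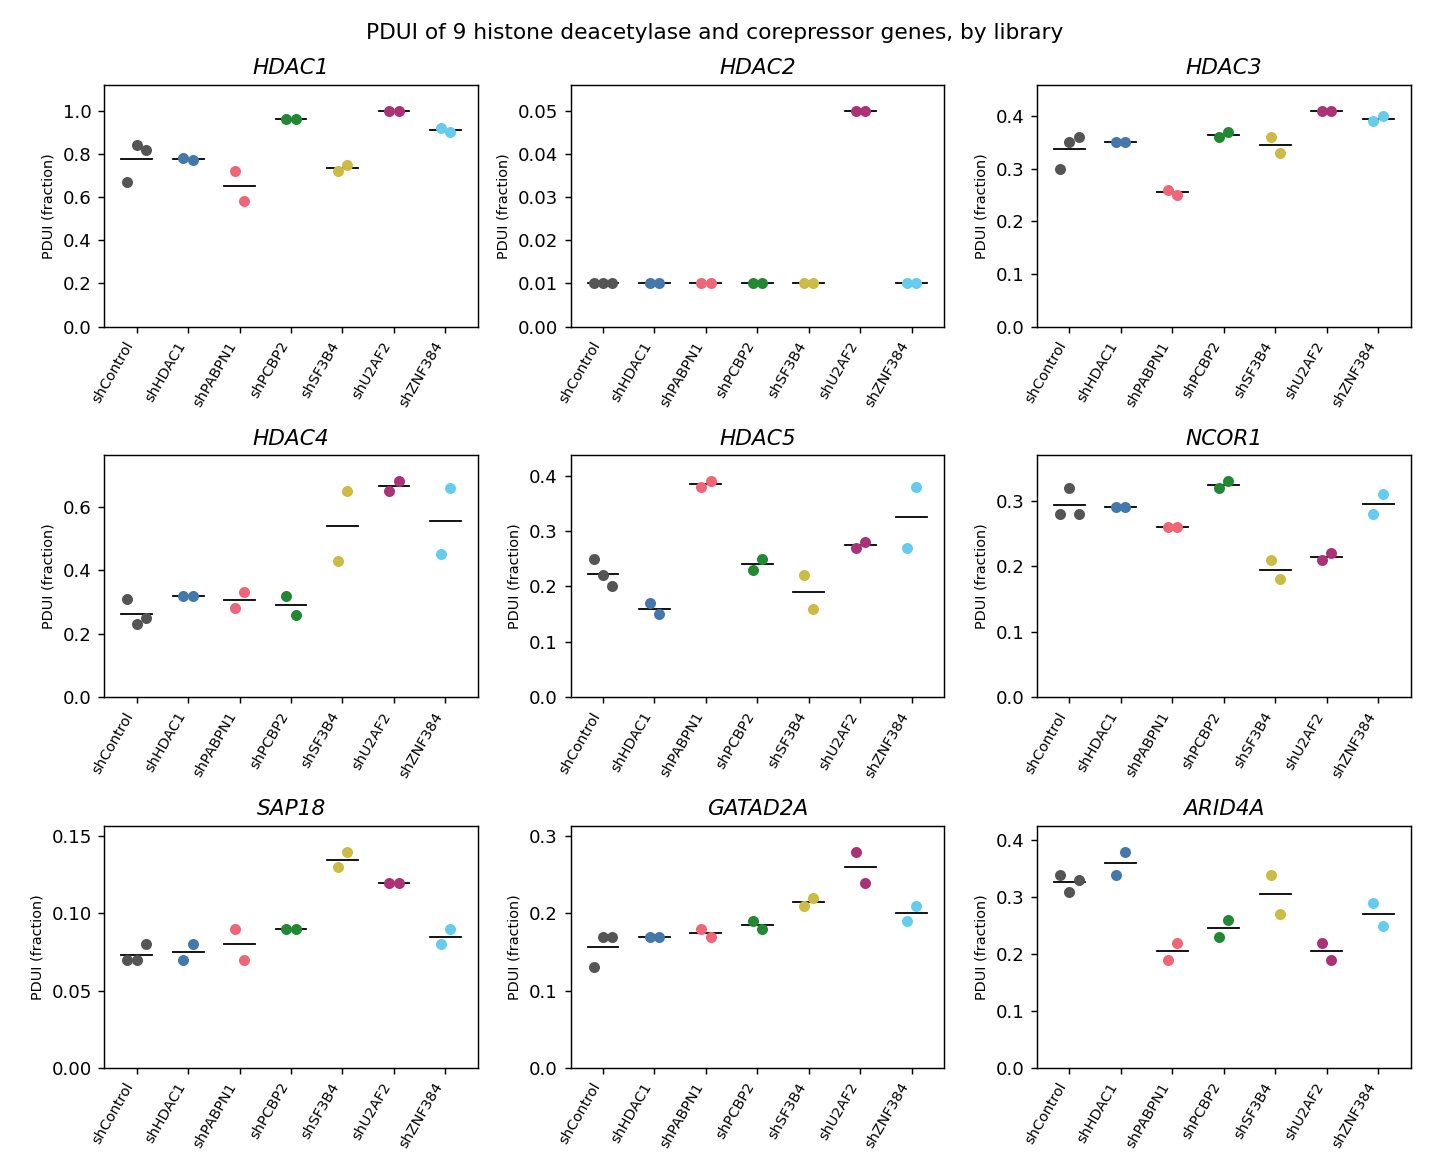
PDUI of each of the 9 genes in every library, by group, with points for libraries and lines for group means; the vertical axes differ between genes. HDAC4 lies at 0.23 to 0.31 in shControl and at 0.65 and 0.68 in shU2AF2, and HDAC2 leaves 0.01 in shU2AF2 only, at 0.05 in both libraries.

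Against shControl, 13 of the 54 differences of the 9 genes passed the threshold of the fit over the whole table (limma, adjusted p under 0.05). In shU2AF2 8 of 9 genes passed, where 7.27% of all genes did (5.88% higher, 1.39% lower). In shPABPN1 3 of 9 passed beside 4.72% of all genes (3.99% higher, 0.725% lower), and in shSF3B4 2 of 9 beside 5.42% (4.26% higher, 1.16% lower). None of the 9 passed in shHDAC1, shPCBP2 or shZNF384, where 0.0243%, 1.17% and 1.5% of all genes did. Since the genes were picked on these contrasts, nothing is read from the shares. The 6 comparisons use the same 3 shControl libraries.

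**Figure D3:**
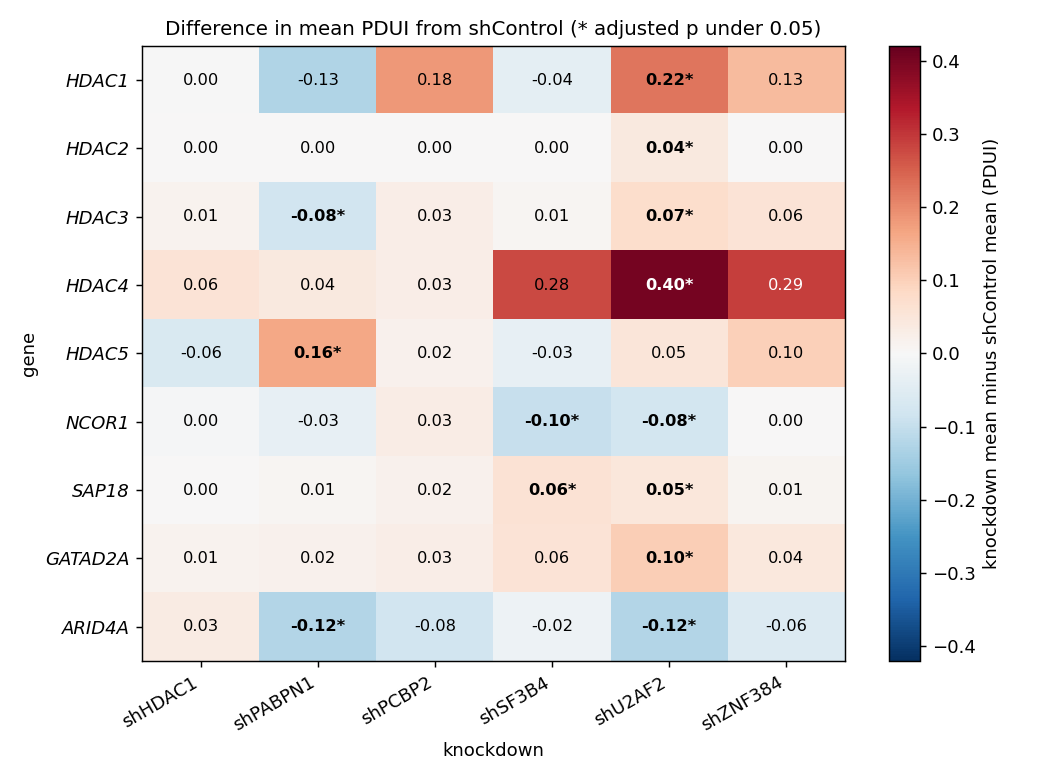
Difference in mean PDUI from shControl for the 9 genes in the 6 knockdowns, written in each cell and coloured by size, with an asterisk where the adjusted p was under 0.05. The shU2AF2 column holds 8 of the 13 asterisks, and the shHDAC1, shPCBP2 and shZNF384 columns hold none.

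HDAC1, the class I deacetylase that is also a knockdown target, reached PDUI 1, the upper limit, in both shU2AF2 libraries. It had nearly the same mean in shControl and in its own knockdown. Its PDUI was 0.67, 0.84 and 0.82 in shControl, 0.78 and 0.77 in shHDAC1, 0.72 and 0.58 in shPABPN1, 0.96 and 0.96 in shPCBP2, 0.72 and 0.75 in shSF3B4, 1 and 1 in shU2AF2, and 0.92 and 0.9 in shZNF384. The shPCBP2, shU2AF2 and shZNF384 libraries lay above all 3 shControl libraries, and those of the other knockdowns overlapped them. The difference from shControl (0.777 ± 0.0929, SD, n = 3) was 0.223 with an SE of 0.0519 in shU2AF2, which passed. It was 0.183 in shPCBP2 and 0.133 in shZNF384, neither of which passed. In shHDAC1 it was −0.00167, with a 95% interval of −0.119 to 0.116. Values at the upper limit can rise no further, which bounds both the spread and the difference of HDAC1 in shU2AF2.

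HDAC2, the close paralogue of HDAC1 in the same complexes, was at 0.01 in the 13 libraries outside shU2AF2 and at 0.05 in both shU2AF2 libraries. The difference of 0.04 passed. None of the groups had any spread, which was so for 519 genes in all, so the SE of 0.00202 comes from the other genes of the fit and from values written in steps of 0.01. With each library centred on its median the HDAC2 difference did not pass.

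HDAC3, the catalytic subunit of the NCoR/SMRT complex, was lower in shPABPN1 and higher in shU2AF2. PDUI was 0.3, 0.35 and 0.36 in shControl, 0.35 and 0.35 in shHDAC1, 0.26 and 0.25 in shPABPN1, 0.36 and 0.37 in shPCBP2, 0.36 and 0.33 in shSF3B4, 0.41 and 0.41 in shU2AF2, and 0.39 and 0.4 in shZNF384. Both shPABPN1 libraries lay below every shControl library, and those of shU2AF2 and shZNF384 above. The differences that passed were −0.0817 in shPABPN1 and 0.0733 in shU2AF2, each with an SE of 0.0173.

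HDAC4, a class IIa deacetylase, had the widest change of the 9. Its PDUI was 0.31, 0.23 and 0.25 in shControl, 0.32 and 0.32 in shHDAC1, 0.28 and 0.33 in shPABPN1, 0.32 and 0.26 in shPCBP2, 0.43 and 0.65 in shSF3B4, 0.65 and 0.68 in shU2AF2, and 0.45 and 0.66 in shZNF384. The shSF3B4, shU2AF2 and shZNF384 libraries all lay above every library of the other groups. The group mean went from 0.263 ± 0.0416 (SD, n = 3) in shControl to 0.665 ± 0.0212 (SD, n = 2) in shU2AF2, a difference of 0.402 with an SE of 0.0706. The differences of 0.277 in shSF3B4 and 0.292 in shZNF384 did not pass, and in both groups the 2 libraries lay far apart, with SDs of 0.156 and 0.148. The shSF3B4 difference passed, at 0.387, without shSF3B4 replicate 1, and at 0.277 without either shZNF384 library.

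HDAC5, the other class IIa deacetylase, was highest in shPABPN1. PDUI values were 0.25, 0.22 and 0.2 in shControl, 0.17 and 0.15 in shHDAC1, 0.38 and 0.39 in shPABPN1, 0.23 and 0.25 in shPCBP2, 0.22 and 0.16 in shSF3B4, 0.27 and 0.28 in shU2AF2, and 0.27 and 0.38 in shZNF384. Both shHDAC1 libraries lay below shControl, and those of shPABPN1, shU2AF2 and shZNF384 lay above it. The difference of 0.162 (SE 0.0302) in shPABPN1 passed, and −0.0633 in shHDAC1, 0.0517 in shU2AF2 and 0.102 in shZNF384 did not.

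NCOR1, the scaffold that binds HDAC3, was lower in the knockdowns of both splicing factors, U2AF2 and SF3B4. PDUI was 0.28, 0.32 and 0.28 in shControl, 0.29 and 0.29 in shHDAC1, 0.26 and 0.26 in shPABPN1, 0.32 and 0.33 in shPCBP2, 0.21 and 0.18 in shSF3B4, 0.21 and 0.22 in shU2AF2, and 0.28 and 0.31 in shZNF384. The 4 libraries of shSF3B4 and shU2AF2 were the lowest of the 15. The differences were −0.0983 in shSF3B4 and −0.0783 in shU2AF2, each with an SE of 0.0147, and both passed.

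SAP18, which also sits in the ASAP and PSAP complexes that act in RNA processing, was higher in the same pair of knockdowns. Its values were 0.07, 0.07 and 0.08 in shControl, 0.07 and 0.08 in shHDAC1, 0.09 and 0.07 in shPABPN1, 0.09 and 0.09 in shPCBP2, 0.13 and 0.14 in shSF3B4, 0.12 and 0.12 in shU2AF2, and 0.08 and 0.09 in shZNF384. No library outside shSF3B4 and shU2AF2 was above 0.09. The differences of 0.0617 in shSF3B4 and 0.0467 in shU2AF2, each with an SE of 0.00674, passed. With libraries centred on their medians neither did. The SE is below the step of 0.01 in which PDUI is written, so the spread it rests on is near the rounding of the values.

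GATAD2A, a subunit of NuRD, was highest in shU2AF2. Its values were 0.13, 0.17 and 0.17 in shControl, 0.17 and 0.17 in shHDAC1, 0.18 and 0.17 in shPABPN1, 0.19 and 0.18 in shPCBP2, 0.21 and 0.22 in shSF3B4, 0.28 and 0.24 in shU2AF2, and 0.19 and 0.21 in shZNF384. The libraries of shPCBP2, shSF3B4, shU2AF2 and shZNF384 lay above all 3 of shControl. The shU2AF2 difference of 0.103 (SE 0.0148) passed. The shSF3B4 difference of 0.0583 did not, although it passed when either shU2AF2 library was left out.

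ARID4A, a DNA-binding subunit of SIN3 complexes, was lower in shPABPN1 and shU2AF2, by the same amount. Its values were 0.34, 0.31 and 0.33 in shControl, 0.34 and 0.38 in shHDAC1, 0.19 and 0.22 in shPABPN1, 0.23 and 0.26 in shPCBP2, 0.34 and 0.27 in shSF3B4, 0.22 and 0.19 in shU2AF2, and 0.29 and 0.25 in shZNF384. The libraries of shPABPN1, shPCBP2, shU2AF2 and shZNF384 all lay below shControl. The difference was −0.122 (SE 0.0238) in shPABPN1 and in shU2AF2, and both passed. In shPCBP2 it was −0.0817 and did not pass.

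In shU2AF2 the libraries of all 9 genes lay outside the shControl range, 7 above and 2 below, where 29% of all genes did (19.2% above, 9.78% below). The counts outside the range were 6 in shZNF384 (beside 24.1% of all genes), 4 each in shPABPN1, shPCBP2 and shSF3B4 (beside 25.9%, 21.5% and 25.2%), and 2 in shHDAC1 (beside 15%). The median difference of the 9 genes from shControl was 0.0517 in shU2AF2, beside 0.0117 over all genes. It was 0.0433 beside 0.0233 in shZNF384, 0.0267 beside 0.015 in shPCBP2, 0 beside 0.0117 in shSF3B4, 0 beside −0.00933 in shPABPN1 and 0.00167 beside 0.00333 in shHDAC1.

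**Figure D4:**
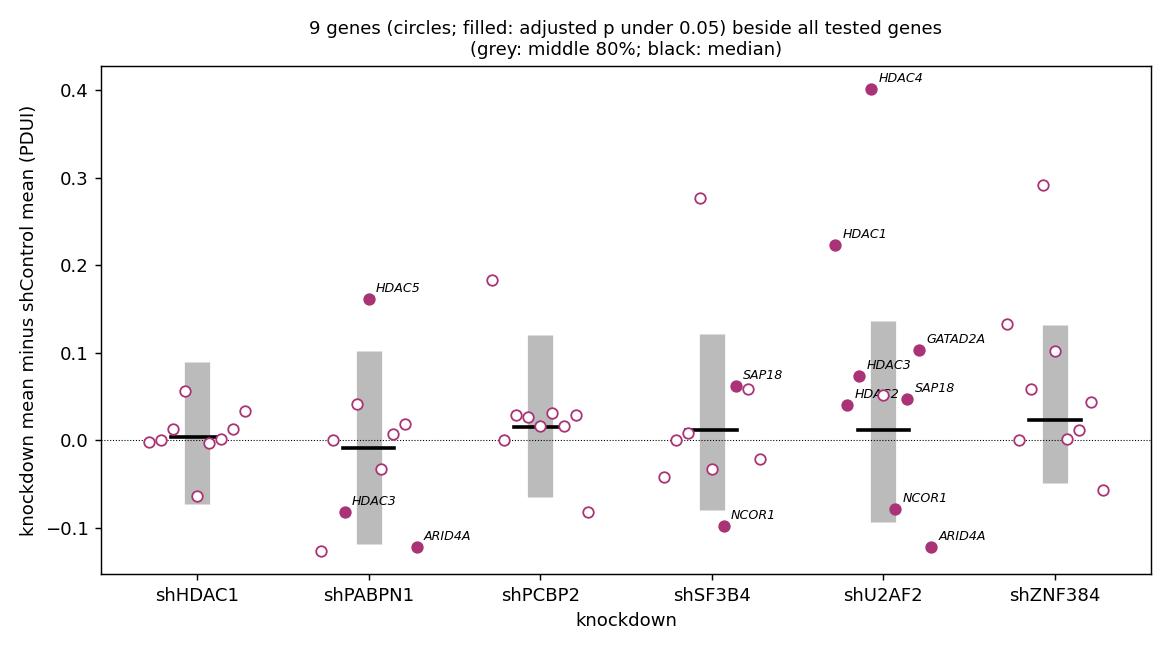
Difference in PDUI from shControl for the 9 genes (points) beside the middle 80% and the median of all tested genes in each knockdown. In shU2AF2 the points spread from −0.122 to 0.402, and in shHDAC1 they stay between −0.0633 and 0.0567.

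Single libraries decided part of these counts. The 8 genes that passed in shU2AF2 became 5 without shU2AF2 replicate 1 (HDAC1, HDAC3 and NCOR1 lost) and 3 without replicate 2 (HDAC4 and ARID4A lost as well). HDAC1 and HDAC3 also missed the threshold without any 1 library of shHDAC1, shPCBP2 or shZNF384, and HDAC3 without either shPABPN1 library. In shPABPN1 the count of 3 became 0 without shControl replicate 3 or either shPABPN1 library, 1 without shControl replicate 2 (ARID4A), and 2 without either shHDAC1 library. It became 4 without shControl replicate 1, when HDAC1 at −0.18 joined. With only shControl and the knockdown in the fit, 3 genes passed in shU2AF2 (HDAC2, HDAC4 and SAP18). In shSF3B4 1 passed (SAP18), and in shPABPN1 0. Over the whole table the genes called then fell from 899 to 327 in shU2AF2, from 661 to 186 in shSF3B4 and from 579 to 0 in shPABPN1. With libraries centred on their medians, 4 passed in shU2AF2 (HDAC4, NCOR1, GATAD2A and ARID4A), 1 in shPABPN1 (HDAC5) and 1 in shSF3B4 (NCOR1).

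Contrasts among the knockdowns leave shControl out of the difference, but its libraries still enter the shared estimate of spread. These contrasts also use the same knockdown libraries on which the genes were picked. Their adjusted p-values and counts therefore describe these genes, and nothing is read from the counts beside the shares of all genes. A moderated F-test asked whether PDUI differed anywhere among the 6 knockdowns. All 9 genes passed it, where 12.9% of all genes did. The limma adjusted p was 3.51e-05 for HDAC2, 0.00268 for SAP18 and 0.00375 for NCOR1, and at the other end 0.0305 for HDAC4 and 0.0315 for GATAD2A. HDAC2 had a residual SD of 0, so its p rests on the spread of other genes and on values in steps of 0.01. The same holds for HDAC2 in the contrasts that follow, and its small p does not rank it above the others. SAP18 had a residual SD of 0.00722, which is also below the step of 0.01. Centred on library medians, 4 of the 9 passed, and HDAC2 (adjusted p = 0.208), HDAC3 (0.113), SAP18 (0.197), GATAD2A (0.0555) and ARID4A (0.102) did not. HDAC4 did not pass with only the knockdowns in the fit (0.0688). The lowest count with 1 library left out was 6, without shHDAC1 replicate 2. HDAC4 missed the threshold in 10 of these 15 refits and GATAD2A in 9, those without either library of shHDAC1, shPABPN1 or shPCBP2 among them.

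Each knockdown was then set against the mean of the other 5. In shU2AF2 7 of 9 genes passed, where 6.49% of all genes did. HDAC4 was 0.263 higher (limma adjusted p = 0.033), HDAC1 0.194 higher (0.0327) and GATAD2A 0.071 higher (0.0105). HDAC3 was 0.068 higher (adjusted p = 0.026), HDAC2 0.04 higher (4.12e-06) and SAP18 0.027 higher (0.0242), and NCOR1 fell by 0.058 (0.026). Since HDAC2 had no spread within groups, its p rests on the spread of other genes. ARID4A, at −0.072 (adjusted p = 0.0774), and HDAC5, at 0.015, did not pass. After centring on library medians 3 passed, and HDAC2 (adjusted p = 0.335), HDAC3 (0.0903), NCOR1 (0.173) and SAP18 (0.617) did not. HDAC4 did not pass with only the knockdowns in the fit (0.074), nor SAP18 without the variance trend (0.0612). The count fell to 1 without shU2AF2 replicate 1 (HDAC2) and to 2 without replicate 2 (HDAC2 and GATAD2A). It was 5 without any 1 library of shHDAC1 or shPCBP2, where HDAC1 and HDAC4 missed the threshold. HDAC1 also missed it without shSF3B4 replicate 1 or either shZNF384 library, and HDAC4 without shControl replicate 2 or 3 or shPABPN1 replicate 1, which left 6 each time.

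In shPABPN1 5 of 9 genes passed against the other 5 knockdowns, where 11.2% of all genes did. HDAC1 fell by 0.226 (limma adjusted p = 0.0168) and HDAC3 by 0.118 (0.00225), and HDAC5 rose by 0.147 (0.0104). SAP18 at −0.021 (adjusted p = 0.0475) and HDAC2 at −0.008 (0.0227) also passed, but with libraries centred on their medians both turned positive, to 0.031 and 0.044. SAP18 had a mean of 0.08 in shPABPN1, beside 0.101 over the other 5 and 0.0733 in shControl. Centring also moved HDAC3 to −0.066, which did not pass (adjusted p = 0.0506). HDAC1 did not pass without shPABPN1 replicate 2 (adjusted p = 0.132), and HDAC5 did not pass without replicate 1 (0.076) or replicate 2 (0.0752). The count was 3 without shPABPN1 replicate 1 and 1 without replicate 2 (HDAC3), and SAP18 missed the threshold in 13 of the 15 refits without 1 library.

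In shHDAC1 4 of 9 genes passed against the other 5 knockdowns, where 5.84% of all genes did, while none of the 9 passed against shControl. ARID4A was 0.114 higher (limma adjusted p = 0.0117), and HDAC5 fell by 0.123 (0.0237) and SAP18 by 0.027 (0.0257). The difference of −0.008 in HDAC2 (adjusted p = 0.0273) follows from shU2AF2 being part of the mean of the other 5, and the same holds for HDAC2 in shPABPN1 and shSF3B4. All 4 missed the threshold without either shHDAC1 library, and all 4 missed it with libraries centred on their medians, at adjusted p = 0.0668 for ARID4A, 0.114 for HDAC5, 0.689 for SAP18 and 0.96 for HDAC2. With only the groups compared in the fit ARID4A alone passed. Without shPCBP2 replicate 1 the count was 3, with HDAC2 lost. For ARID4A the mean of the other 5 knockdowns was 0.246, beside 0.327 in shControl and 0.36 in shHDAC1. For SAP18 that mean was 0.102, beside 0.0733 in shControl and 0.075 in shHDAC1. It includes shSF3B4 at 0.135 and shU2AF2 at 0.12, so the SAP18 difference is not one from shControl.

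Among the remaining knockdowns, shSF3B4 had 3 of 9 genes past the threshold, where 6.99% of all genes were. SAP18 was 0.045 higher (limma adjusted p = 0.00151), NCOR1 fell by 0.082 (0.00419), and HDAC2 was at −0.008 (0.0236). NCOR1 missed the threshold without shSF3B4 replicate 2 (adjusted p = 0.0681), and HDAC2 without either shSF3B4 library. After centring NCOR1 passed, and SAP18 (adjusted p = 0.375) and HDAC2 (0.819) did not. In shPCBP2, NCOR1 alone passed, 0.074 higher (adjusted p = 0.0277), where 1.39% of all genes did, and it missed without either shPCBP2 library (0.15 and 0.261) or either shHDAC1 library (0.0548 and 0.0534) and with centring (0.413). In shZNF384 none of the 9 passed, where 0.646% of all genes did.

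**Figure D5:**
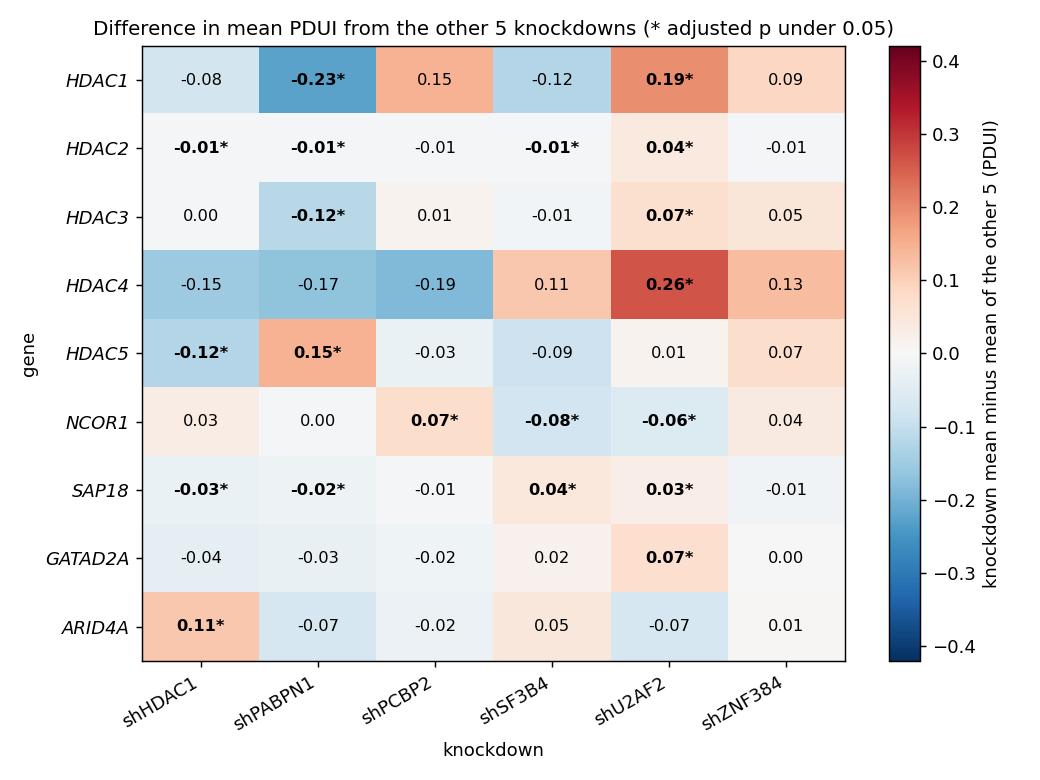
Difference in mean PDUI between each knockdown and the mean of the other 5 for the 9 genes, written in each cell, with an asterisk where the adjusted p was under 0.05. The shU2AF2 column holds 7 asterisks and the shZNF384 column none, and the HDAC2 and SAP18 values of shPABPN1 turn positive with libraries centred on their medians.

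U2AF2 and SF3B4 both take part in recognition of the 3′ splice site and branch point, and the difference between their knockdowns was tested directly. HDAC1 was 0.265 higher in shU2AF2 than in shSF3B4 (SE 0.0568, limma adjusted p = 0.0366), and HDAC2 0.04 higher (3.14e-05), where 3.95% of all genes passed. The p of HDAC2, a gene with no spread within groups, rests on the spread of other genes. HDAC1 was at the upper limit of PDUI in shU2AF2, which bounds its difference. The other 7 genes did not pass. For HDAC4 the difference was 0.125, with a 95% interval of −0.0499 to 0.3. The interval was narrower for NCOR1, at 0.02 (−0.0165 to 0.0565), and for SAP18, at −0.015 (−0.0317 to 0.00169), and neither shows that the 2 knockdowns act alike. ARID4A differed by −0.1 (adjusted p = 0.0777). HDAC2 missed the threshold with libraries centred on their medians (adjusted p = 0.463), and both genes missed it with only the groups compared in the fit (0.0899). HDAC1 also missed it when either library of shHDAC1, shPCBP2, shSF3B4, shU2AF2 or shZNF384 was left out, with adjusted p up to 0.168.

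Across the 15 libraries the PDUI of some of the 9 genes ran together. Pearson's r was 0.859 for HDAC1 and HDAC3, 0.816 for HDAC4 and GATAD2A, and 0.783 for SAP18 and GATAD2A. NCOR1 and SAP18 ran in opposite directions (−0.798), as did HDAC5 and ARID4A (−0.694). The 15 points share libraries and fall into 7 groups, so these values are a description. They were computed on PDUI as deposited, without centring, so shifts of whole libraries enter them. How much these shifts contribute was not tested.

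HDAC4 had the widest range, and the genes whose PDUI was most like it were looked for among 3251 genes with a value in every library and group means spanning at least 0.2. The closest were ZNRF3, a ubiquitin ligase that acts on Wnt receptors (r = 0.924), LMX1B, a homeodomain transcription factor (0.895), and POFUT1, an O-fucosyltransferase of Notch receptors (0.886). ZNRF3 had a group mean of 0.377 in shControl and 0.92 in shU2AF2, with 0.81 in shSF3B4 and 0.61 in shZNF384. LMX1B had 0.47, 0.93, 0.83 and 0.66 in the same order, and POFUT1 had 0.727, 1, 0.975 and 0.91. All 3 had their highest group mean in shU2AF2, as HDAC4 did, but they were picked for running with HDAC4 over these same libraries. The shared peak is therefore no separate result. These r values, too, are of PDUI as deposited, without centring. In shSF3B4 the 2 libraries lay far apart, with SDs of 0.269 for ZNRF3 and 0.24 for LMX1B, and POFUT1 in shU2AF2 was at the upper limit of PDUI. The last exon of POFUT1 also holds the microRNA gene MIR1825.

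Beyond the 9, 59 other genes of the deacetylase, sirtuin, corepressor and acetyltransferase lists had a value and were tested against shControl. In shU2AF2 5 of the 59 rose and 0 fell, in shPABPN1 3 rose and 1 fell, in shSF3B4 3 rose and 2 fell, in shZNF384 1 rose, and in shHDAC1 and shPCBP2 none passed. Of all genes, 7.27% were called in shU2AF2 (5.88% higher, 1.39% lower) and 4.72% in shPABPN1 (3.99% higher, 0.725% lower). In shSF3B4 5.42% were called (4.26% higher, 1.16% lower), and in shZNF384 1.5% in either direction. Nothing particular to the lists is read from their counts. Their median difference was 0.01 in shU2AF2, −0.035 in shPABPN1, 0.0167 in shSF3B4, 0.0233 in shZNF384, 0.015 in shPCBP2 and 0.01 in shHDAC1.

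Among sirtuins, the NAD-dependent deacetylases, SIRT5 was the 1 gene of 7 that passed. It rose in shU2AF2, shPABPN1 and shSF3B4, where 5.88%, 3.99% and 4.26% of all genes did. Its mean PDUI was 0.263 ± 0.0289 (SD, n = 3) in shControl and rose to 0.565 ± 0.00707 (SD, n = 2) in shU2AF2 (limma adjusted p = 0.00212), 0.47 ± 0.0707 in shPABPN1 (0.0243) and 0.465 ± 0.0919 in shSF3B4 (0.0239). An antisense gene, AL441883.1, lies on its last exon, and whether the authors' counting used strand is not stated. The shU2AF2 call held under each of the 21 alternatives. The shPABPN1 call was lost without shControl replicate 2 (adjusted p = 0.0541), shControl replicate 3 (0.0613) or shPABPN1 replicate 2 (0.141), and the shSF3B4 call without any 1 shControl library or shSF3B4 replicate 2 (0.151 at most).

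Of 9 histone acetyltransferases, which oppose the deacetylases, 2 rose in shU2AF2, 1 rose and 1 fell in shPABPN1, and 1 rose in shZNF384. Over all genes 5.88% rose in shU2AF2, and 3.99% rose and 0.725% fell in shPABPN1. In shZNF384 1.5% were called in either direction, and nothing particular to the acetyltransferases is read from these counts. KAT7, the catalytic subunit of the HBO1 complex, had a mean of 0.0633 ± 0.00577 in shControl. It rose to 0.145 ± 0.00707 in shU2AF2 (limma adjusted p = 0.000708) and 0.14 ± 0.0141 in shPABPN1 (0.00185). In shZNF384 it was at 0.11 in both libraries (adjusted p = 0.0481), a difference that turned to −0.00167 with libraries centred on their medians and that missed the threshold without any 1 library of shControl, shHDAC1, shSF3B4, shU2AF2 or shZNF384 (0.225 at most). A long noncoding RNA gene on the same strand, AC027801.4, shares its last exon. The SE of each KAT7 difference, 0.00932, is below the step of 0.01 in which PDUI is written. KAT8, the catalytic subunit of the MSL and NSL complexes, rose from 0.31 ± 0.03 to 0.53 ± 0.0566 in shU2AF2 (adjusted p = 0.0017). CREBBP, a coactivator acetyltransferase, fell from 0.38 ± 0.0265 to 0.29 ± 0.0283 in shPABPN1 (adjusted p = 0.0418), and lost that call in 12 of the 15 refits without 1 library, all but those without shControl replicate 1 or either shSF3B4 library (adjusted p up to 0.261).

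PNN, which joins SAP18 and RNPS1 in the PSAP complex, rose with SAP18 in both splicing factor knockdowns. Its PDUI went from 0.16 ± 0.01 in shControl to 0.275 ± 0.00707 in shSF3B4 (limma adjusted p = 0.000261) and 0.22 ± 0.0141 in shU2AF2 (0.00646), and the other 2 partners of SAP18 did not pass in either. With libraries centred on their medians neither PNN call held, and without shU2AF2 replicate 1 the shU2AF2 call was lost (adjusted p = 0.0618).

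In the CoREST complex, of 9 genes tested, 1 rose in shPABPN1 and 2 fell in shSF3B4. Over all genes 3.99% rose in shPABPN1 and 1.16% fell in shSF3B4, and nothing particular to the complex is read from these counts. PHF21A, a reader of unmethylated histone H3, moved in opposite directions, from 0.58 ± 0.0557 in shControl to 0.865 ± 0.12 in shPABPN1 (limma adjusted p = 0.0258) and 0.285 ± 0.00707 in shSF3B4 (0.0196). Its listed transcript is of the retained-intron type. The shPABPN1 call was lost without shControl replicate 2 (adjusted p = 0.0721) or shPABPN1 replicate 1 (0.167), and the shSF3B4 call without shControl replicate 2 (0.0516), shControl replicate 3 (0.0623) or either shSF3B4 library (0.0976 and 0.111). ZMYM2, a zinc finger partner of CoREST, fell from 0.2 ± 0.01 to 0.14 ± 0.0141 in shSF3B4 (adjusted p = 0.0147), a call lost without shSF3B4 replicate 1 (0.115).

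Of these 13 calls on genes outside the 9, only those of SIRT5 and KAT7 in shU2AF2 and of PNN in shSF3B4 held with just the groups compared in the fit. With libraries centred on their medians 8 were lost: KAT7 in shPABPN1, shU2AF2 and shZNF384, both of PNN, CREBBP in shPABPN1, and ZMYM2 and SIRT5 in shSF3B4.

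Against shControl, 5.88% of all genes were called higher in shU2AF2, 3.99% in shPABPN1 and 4.26% in shSF3B4. Those called lower were 1.39%, 0.725% and 1.16% in the same order. By complex, and with the 9 genes counted in, 3 of 4 class I deacetylases rose in shU2AF2 and 1 fell in shPABPN1. Those class I genes are HDAC1, HDAC2 and HDAC3, which were picked on these contrasts, so the count is no independent evidence. Of 6 class II and IV deacetylases 1 rose in each of shU2AF2 and shPABPN1, HDAC4 and HDAC5 in that order. Of 14 SIN3 genes 1 rose and 1 fell in shU2AF2, 1 rose in shSF3B4 and 1 fell in shPABPN1, and all of these were SAP18 or ARID4A. Of 9 NuRD genes 2 rose in shU2AF2, GATAD2A and the remodeller CHD3. Of 5 NCoR/SMRT genes 1 fell in shU2AF2 and 1 rose and 1 fell in shSF3B4, where the gene that rose was CORO2A. The NCoR/SMRT gene that fell in shU2AF2 and in shSF3B4 was NCOR1. CHD3 and CORO2A are named to complete these counts and were chosen after their values were seen. All other genes that rose or fell in these counts by complex are among the 9 picked on these contrasts. Those counts are therefore no independent evidence either. None of the 3 MiDAC genes passed in any knockdown at the adjusted threshold of limma.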

How the data were processed

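RNA was sequenced from 15 HEK293T libraries. Per the labels' protocols, a nuclear isolation kit and then a kit for total RNA were used, and poly(A) RNA was captured on oligo(dT). Both nuclear and total RNA are named, and which of them was sequenced was not tested. The authors deposited PDUI as a fraction with 2 decimals, up to 1 and apart from entries at the lowest value of 0.001, for 13056 genes with 1 transcript each. The build is hg38 per the submitters' processing notes. Aligner, site caller and annotation: not given in the sources used here. Depth is unknown, so no interval for counting error is given, and 1.37% to 4.49% of the genes had no value in a given library.

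The 9 genes, the gene lists, the tests and the alternatives were chosen with earlier results of these data known. Groups follow the titles. Titles and library names disagree on the replicate numbers of shSF3B4, and the numbers used are those of the table header. PDUI entered limma 3.58.1 (R 4.3.3) as deposited, with all 15 libraries in 1 fit, 1 mean per group and eBayes with a variance trend (8 residual and 1.06 prior degrees of freedom). A gene was tested when both knockdown libraries and at least 2 shControl libraries had a value, or, among knockdowns, all 12 libraries (all 4 for shU2AF2 against shSF3B4). Tests were two-sided, with Benjamini-Hochberg adjustment over all genes of a comparison. The named genes are the 9, up to 4 other called list genes per knockdown with the smallest p, and the 3 genes most like HDAC4. The fit was tested on simulated data. Transcripts were matched to GENCODE 29 by identifier (97.3% found, 54.9% with the same version, and 7 of the 9). The alternatives were centring libraries on their medians, fitting only the groups compared, no variance trend, the arcsine square root scale, complete genes only, a replicate block, and leaving out each library.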

Additional observations from a re-analysis of the deposited data

Results flagged for a closer look

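The differences among knockdowns given here are past the threshold of a fit over the whole table, in genes picked for how they vary among these same libraries. The values describe the genes and are no independent test of them. The moderated F-test among the 6 knockdowns (limma, adjusted over all genes) gave an adjusted p of 0.0136 for HDAC1, 3.51e-05 for HDAC2, 0.00559 for HDAC3, 0.0305 for HDAC4, 0.0108 for HDAC5, 0.00375 for NCOR1, 0.00268 for SAP18, 0.0315 for GATAD2A and 0.0179 for ARID4A, where 12.9% of all genes passed. HDAC2 had no spread within any group, so its small p rests on the spread of other genes.

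Between the knockdowns of U2AF2 and SF3B4, HDAC1 differed by 0.265 and HDAC2 by 0.04 in PDUI, both higher in shU2AF2. HDAC1 was at the upper limit of PDUI in shU2AF2. No group had the 4 samples that a check for single outlying libraries needs.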

How the results depend on the processing

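Of the 13 differences from shControl that passed among the 9 genes, all 13 passed without the variance trend, on the arcsine square root scale, with complete genes only and without shControl replicate 1. Centring kept 6, the fit of only the groups compared kept 4, and 0 reversed under any alternative. Of the 41 that did not pass, 13 changed sign with centring. The cause was not tested.

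With libraries centred on their medians the genes called against shControl were 0 in shHDAC1, 362 in shPABPN1, 4 in shPCBP2, 210 in shSF3B4, 391 in shU2AF2 and 0 in shZNF384. Of the 9, 1 was then called in shPABPN1, 1 in shSF3B4 and 4 in shU2AF2. Against the other knockdowns the counts were 0 in shHDAC1, 2 in shPABPN1, 0 in shPCBP2, 1 in shSF3B4 and 3 in shU2AF2, with 1 for shU2AF2 against shSF3B4 and 4 in the F-test. Under each alternative, genes called over the whole table were counted only against shControl. The counts of the 9 among knockdowns therefore have no share beside them, and nothing is read from them. Centring reversed KAT7 in shZNF384 to −0.00167, and, against the other knockdowns, HDAC2 and SAP18 in shPABPN1 to 0.044 and 0.031.

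With only the groups compared in the fit, the genes called were 0 in shPABPN1, 2 in shPCBP2, 186 in shSF3B4, 327 in shU2AF2 and 5 in shZNF384. Of the 9, 0 were called in shPABPN1, 1 in shSF3B4 and 3 in shU2AF2, with 1 in shHDAC1 against the other knockdowns and 0 for shU2AF2 against shSF3B4. Without the variance trend 120 genes were called in shZNF384, and 2 of the 9 in shHDAC1 and 3 in shPABPN1 against the other knockdowns. On the arcsine scale 2 of the 9 were called in shPCBP2 and 1 in shZNF384 against the other knockdowns.

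Replicate numbers gave no sign of pairing: the deviations of same-numbered libraries correlated at −0.0116 to 0.0468 over 15 pairs of groups. The check left out shSF3B4 and shControl replicate 3. Taken over all complete genes, it cannot exclude pairing that touches part of them. With the replicate number as a block, without shSF3B4, the genes called were 6 in shHDAC1, 233 in shPABPN1, 7 in shPCBP2, 534 in shU2AF2 and 3 in shZNF384, and, of the 9, 0 in shPABPN1 and 6 in shU2AF2, where HDAC1 (adjusted p = 0.116) and ARID4A (0.0576) did not pass. The block was not fitted for shSF3B4 or among knockdowns.

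With 1 library left out, where a lone library is assumed to vary like the other groups, genes called ranged from 3 to 51 in shHDAC1 (3 with all), 343 to 1048 in shPABPN1 (579), 46 to 158 in shPCBP2 (145), 429 to 662 in shSF3B4 (661), 573 to 855 in shU2AF2 (899) and 22 to 213 in shZNF384 (188). Of the 9, they ranged from 0 to 4 in shPABPN1, 2 to 3 in shSF3B4 and 3 to 8 in shU2AF2, and were 0 in shHDAC1, shPCBP2 and shZNF384. Against the other knockdowns they ranged from 0 to 4 in shHDAC1, 1 to 6 in shPABPN1, 0 to 1 in shPCBP2, 1 to 4 in shSF3B4 and 1 to 8 in shU2AF2, and were 0 in shZNF384, with 1 to 3 for shU2AF2 against shSF3B4 and 6 to 9 in the F-test. Depth is unknown, so what it limits could not be assessed.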
